A study of Homo sapiens with 4 samples.

Results

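The genes described here encode the invariant signalling chains of the T cell antigen receptor, CD3D, CD3E, CD3G and CD247, together with PTCRA, the pre-TCR alpha chain, and TRAT1, an adaptor of the same receptor. They were chosen by symbol, and the table holds 1 entry for each of these 6 genes among 60609 gene identifiers. The cells were CCRF-CEM, a human line grown from a T cell acute lymphoblastic leukaemia, in a derivative carrying HA-AMPKa2, a tagged catalytic subunit of the energy-sensing kinase AMPK. This transgene was present in both groups, and neither its promoter nor whether the derivative is 1 clone is given in the sources used here. The Ctrl group (2 libraries, CTRL_7 and CTRL_8) was kept in control medium and the No glucose group (2 libraries, ONG_9 and ONG_10) in medium lacking glucose, both for 24 hours and both on an RPMI culture with fetal bovine serum. Total RNA was sequenced, and the comparison asks how each transcript's level differed after glucose withdrawal.

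The T cell receptor has clonotypic chains that bind antigen but carry almost no cytoplasmic tail, so signalling depends on the CD3 chains that assemble with them. CD3E pairs with CD3D and with CD3G in the endoplasmic reticulum, and CD247, the zeta chain, joins as a homodimer before the complex reaches the surface. Each of these chains carries immunoreceptor tyrosine-based activation motifs (ITAMs), whose paired tyrosines are phosphorylated by LCK and then hold the kinase ZAP70. In immature thymocytes PTCRA stands in for the alpha chain, forming with a rearranged beta chain the pre-TCR that drives passage through beta selection. TRAT1 is a transmembrane adaptor that associates with the receptor and lacks an ITAM of its own.

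The coding stretches of the ITAMs are shown because they are the part the chains have in common. They were read from GENCODE 29 transcripts (GRCh38) by searching each coding sequence for a tyrosine, any 2 residues and a leucine or isoleucine, repeated after 6 to 8 residues. The capitals mark the 2 tyrosine codons of each motif.
CD3D residues 149 to 163: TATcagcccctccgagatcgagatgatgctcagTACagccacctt
CD3E residues 188 to 202: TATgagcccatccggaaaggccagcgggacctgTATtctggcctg
CD3G residues 160 to 174: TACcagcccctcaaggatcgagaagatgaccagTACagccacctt
CD247 residues 72 to 86: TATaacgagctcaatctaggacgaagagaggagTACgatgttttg
CD247 residues 111 to 126: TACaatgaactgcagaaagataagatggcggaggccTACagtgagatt
CD247 residues 142 to 156: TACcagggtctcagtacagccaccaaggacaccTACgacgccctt
CD3D, CD3E and CD3G each held 1 such stretch and CD247 held 3. The pattern had 0 matches in PTCRA and 0 in TRAT1.

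Depth differed between libraries, from 19035535 to 24513840 gene reads in 3 of them and 96698709 in CTRL_7. Values below are normalized counts, reads divided by the authors' size factor for each library. All 14 T lineage markers examined, which include CD3D, CD3E, CD3G and CD247, had reads in every library. The lowest was TRAC in Ctrl, at 82.1 and 91.0 normalized counts, and CD2 in No glucose, at 179 and 175. The 5 B cell markers summed to 61.5 to 67.0 normalized counts in Ctrl and 29.5 to 33.4 in No glucose, with MS4A1 and CD22 at or near 0 and PAX5 called lower (31.0 ± 2.27 and 7.41 ± 4.53, SD, n = 2). The B cell receptor chains CD79A and CD79B, not in that sum, were higher, CD79A at 663 to 671 in Ctrl and 423 to 449 in No glucose. The 5 NK cell markers summed to 18.7 to 23.4 and 44.9 to 54.6, and the 6 myeloid markers to 42.2 to 46.8 and 34.9 to 60.3, with MPO at 0 and NCAM1, an NK cell marker, called higher (9.51 ± 2.10 and 23.4 ± 1.28). Among the 5 erythroid markers HBB was at 0 in every library and EPOR at 179 to 238. Of the 6 genes listed as markers of adherent cells, EPCAM was called lower (508 ± 37.8 and 403 ± 28.3). VIM (15264 ± 346 and 19622 ± 787) and COL1A1 (2.37 ± 0.434 and 16.4 ± 12.5) were called higher. VIM was near the level of CD3D (17296 ± 41.1 and 18427 ± 700), so it is not read as a sign of adherent cells. The part of these markers in the members' values was not tested.

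Glucose withdrawal moved the CD3 chains in different directions. CD3E rose to 1.45 times its control level, CD3G fell to 0.73 of its own, and CD247 rose by a smaller step. CD3D, TRAT1 and PTCRA did not pass the test. All 6 genes passed the minimum mean of 1 normalized count, and 3 of them were called at an adjusted p under 0.05 (limma on log2(normalized count + 1), Benjamini-Hochberg over 27486 genes). The background is wide: 35.1% of all genes tested were called, and 66.0% of the 10656 protein-coding genes with a mean of at least 50. The members' share of calls was not above that of genes at their level. The share of genes called was 37.3% by edgeR, 40.2% by limma-voom, 36.1% with library totals and 34.8% with TMM scaling, each over 27486 genes. DESeq2 called 7302 of the 17894 genes to which it gave an adjusted p, or 40.8%. After a length and GC correction 41.1% of 26794 genes were called. The share was 34.4% and 35.7% with pseudocounts of 0.5 and 5, 24.0% of 37164 genes without a filter and 54.0% of 17614 with a minimum mean of 10. Without CTRL_7, CTRL_8, ONG_9 or ONG_10 it was 19.7%, 22.0%, 38.6% and 31.8%. Higher calls made up 18.9% and lower calls 47.2% of those coding genes, against 2 and 1 of the 6 members. The 2 groups of libraries did not overlap for 5 of the 6 members, nor for 66.8% of all genes tested and 85.3% of those coding genes, so that the members' count is near the background. The labels do not say whether libraries came from separate cultures, so the p-values measure the spread between these libraries, which may be technical. In bulk RNA a change in level per cell and a change in the share of expressing cells cannot be told apart.

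**Figure D1:**
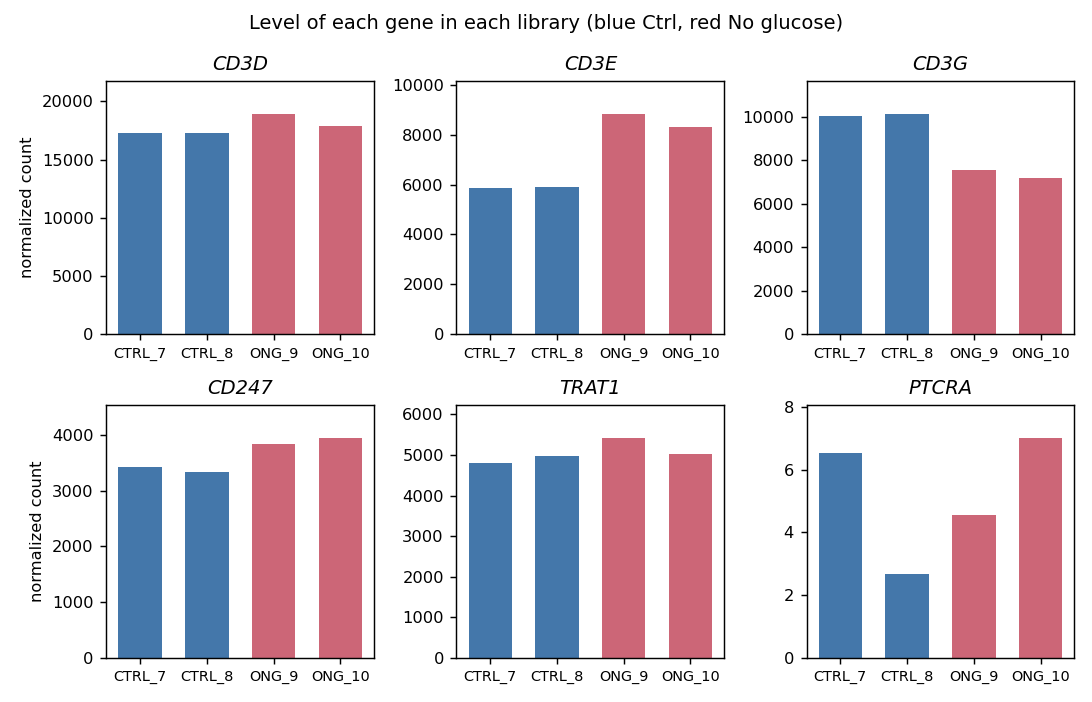
Normalized count of each gene (vertical axes, each starting at 0 with its own range) in the 4 libraries (horizontal axis), with blue bars for Ctrl and red bars for No glucose; 1 bar is 1 library. CD3E is higher and CD3G lower in both red bars, while PTCRA stays between 2.68 and 7.02 normalized counts.

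CD3E, the chain shared by the CD3 dimers, lies at chr11:118304545-118316175 on the plus strand (GRCh38, GENCODE 29). Its normalized counts were 5882 in CTRL_7 and 5928 in CTRL_8, against 8846 in ONG_9 and 8337 in ONG_10. Both No glucose libraries stood above both controls by far more than the gap within either pair. The log2 fold change was 0.54 ± 0.05 (SE), with a 95% interval from 0.42 to 0.66 and an adjusted p of 1.2e-05 by limma. Among the coding genes with a mean of at least 50, whose median change was -0.20, this rise stood at a percentile of 91.5. It was called under all 14 alternatives run, with log2 fold changes from 0.50 to 0.75.

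CD3G, which pairs with CD3E, lies at chr11:118344344-118355161 on the plus strand of the same cluster. It had 10043 and 10132 normalized counts in CTRL_7 and CTRL_8, and 7564 and 7181 in ONG_9 and ONG_10. The groups did not overlap, and the fall was many times the spread within them. Its log2 fold change was -0.45 ± 0.05 (SE; 95% interval -0.57 to -0.34; adjusted p = 3.5e-05, limma). That value stood at a percentile of 31.7 among the coding genes, inside their interquartile range of -0.55 to 0.14. The fall was called under all 14 alternatives. With libraries scaled to their totals it was -0.24, which moves the value by over 1.5 times without changing the call.

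CD3D, the other partner of CD3E, lies between them at chr11:118338954-118342744 on the minus strand. It was the most abundant member, with 17325 and 17267 normalized counts in CTRL_7 and CTRL_8 and 18922 and 17932 in ONG_9 and ONG_10. Both No glucose libraries were above both controls, but they differed from each other by more than the lower of them did from the controls. The log2 fold change of 0.09 ± 0.05 (SE) had an interval from -0.02 to 0.20 and was not called by limma (adjusted p = 0.18). The call depended on the scaling: CD3D reached 0.30 (adjusted p = 0.00019) with library totals and 0.27 (1.1e-06) after a length and GC trend was removed. It also passed without ONG_9 (0.052, adjusted p = 0.045) and without ONG_10 (0.13, 0.0073). Every alternative gave a positive sign, and 10 of the 14 left it uncalled.

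CD247, the zeta chain, lies on another chromosome, at chr1:167430640-167518610 on the minus strand. It had 3424 and 3341 normalized counts in CTRL_7 and CTRL_8 and 3836 and 3954 in ONG_9 and ONG_10, again with no overlap between the groups. The log2 fold change was 0.20 ± 0.06 (SE; 95% interval 0.08 to 0.33; adjusted p = 0.015, limma). This rise was the least secure of the 3 calls. It was not called without CTRL_7 (0.22, adjusted p = 0.21) or without CTRL_8 (0.19, 0.33), although its size hardly moved. Library totals raised it to 0.41 and the length and GC correction to 0.43. The annotated noncoding RNAs AL359962.1 and AL359962.2 lie on the same strand within its span and had at most 14.0 normalized counts.

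TRAT1, the receptor-associated adaptor, lies at chr3:108822698-108855005 on the plus strand. Its normalized counts were 4805 and 4985 in CTRL_7 and CTRL_8, and 5427 and 5013 in ONG_9 and ONG_10. ONG_10 was only slightly above CTRL_8, so the difference was of the size of the spread within the groups. The log2 fold change was 0.09 ± 0.06 (SE), with an interval from -0.04 to 0.22 and an adjusted p of 0.27 by limma. It was called at 0.30 (adjusted p = 0.0017) with library totals, at 0.19 (0.00028) after the length and GC correction and at 0.15 (0.040) without ONG_10. The other 11 alternatives left it uncalled, with the same sign.

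PTCRA, the pre-TCR alpha chain, lies at chr6:42915989-42925835 on the plus strand and was close to absent. Its reads numbered 19 in CTRL_7 and 2 in CTRL_8, and 3 in ONG_9 and 5 in ONG_10, which are 6.53, 2.68, 4.55 and 7.02 normalized counts. The groups overlapped. Summed over libraries the ratio of No glucose to Ctrl was 1.02, with an exact 95% interval of 0.39 to 2.39 that covers counting error only. On the log2(normalized count + 1) scale limma gave 0.34 ± 0.57 (SE; interval -0.92 to 1.61; adjusted p = 0.69). Without CTRL_8 the sign turned, to -0.17. A change of PTCRA of moderate size in either direction was not detectable at this depth.

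**Figure D2:**
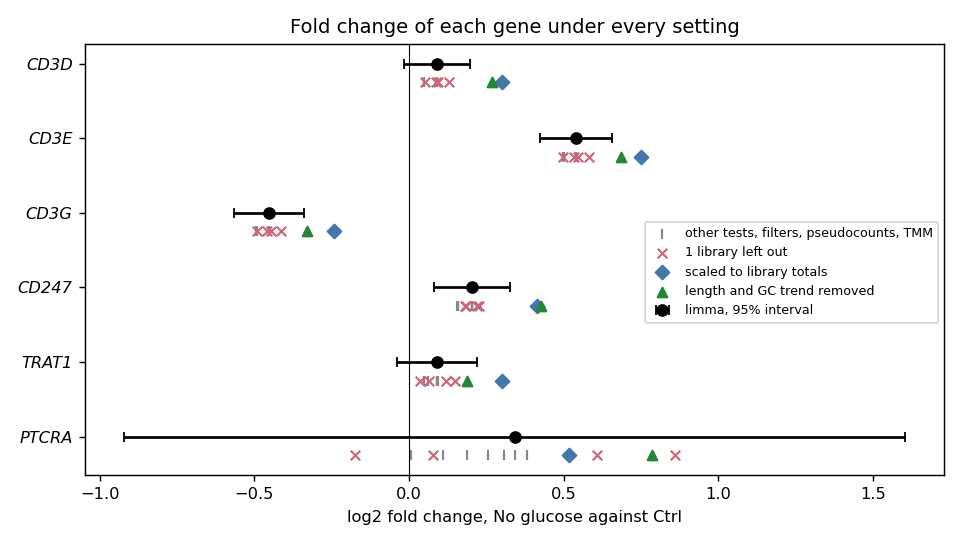
Log2 fold change of No glucose against Ctrl (horizontal axis) for each of the 6 genes (rows). Black circles with bars are the limma estimates with 95% intervals; the marks below each are the same gene under the alternatives, with 1 library left out, library totals and the length and GC correction drawn separately. CD3E stays above 0 and CD3G below 0 under every mark, CD3D and TRAT1 lie close to 0 except under the last 2 settings, and PTCRA spans from -0.17 to 0.86.

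The opposite course of CD3E and CD3G showed most plainly as a ratio within each library, which no scaling can alter. CD3E had 0.586 and 0.585 times the counts of CD3G in CTRL_7 and CTRL_8, and 1.17 and 1.16 times in ONG_9 and ONG_10. The mean log2 ratio went from -0.773 ± 0.00103 to 0.221 ± 0.00733 (SD, n = 2), a shift of 0.99. The ratio of CD3D to CD3E fell by 0.45 on the log2 scale, from 2.95 and 2.91 in the controls to 2.14 and 2.15. That of CD3D to CD3G went the other way, from 1.73 and 1.70 to 2.50 and 2.50. CD3D and TRAT1 kept nearly constant proportions: their ratio was 3.61 and 3.46 in Ctrl and 3.49 and 3.58 in No glucose, with overlapping groups. CD3D to CD247 was 5.06 and 5.17 against 4.93 and 4.54, a log2 shift of -0.11. Over 10 ratios compared among the 5 expressed members, 8 had groups that did not overlap. Among single coding genes with a mean of at least 50, 85.3% had groups that did not overlap. No such share was computed for ratios of other gene pairs, and the 10 ratios share 5 genes. An exact permutation test of 2 libraries against 2 cannot give a two-sided p below 0.333, the value for those 8 (0.417 after Benjamini-Hochberg adjustment over the 10). The separate limma intervals of CD3E (0.42 to 0.66) and CD3G (-0.57 to -0.34) lie on opposite sides of 0.

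**Figure D3:**
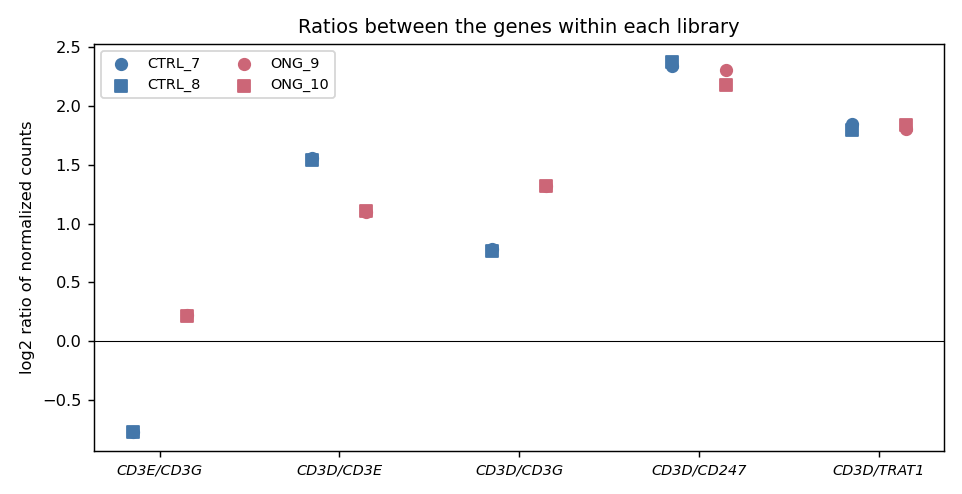
Log2 ratio of the normalized counts of 2 genes within a library (vertical axis) for 5 pairs (horizontal axis), with blue for Ctrl, red for No glucose, circles for CTRL_7 and ONG_9 and squares for CTRL_8 and ONG_10; in several pairs the marks of a group coincide. CD3E/CD3G goes from -0.773 to 0.221 on average, whereas CD3D/TRAT1 overlaps between the groups.

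Compared with each other per kilobase of annotated exon, the members kept their extremes and changed their middle order, a change that depended on the length used. In Ctrl, CD3D had 18618 ± 44.3 normalized counts per kilobase (SD, n = 2), followed by CD3G with 2630 ± 16.5, CD3E with 2076 ± 11.5 and TRAT1 with 1936 ± 50.5. CD247 followed with 838 ± 14.4 and PTCRA with 3.94 ± 2.33. In No glucose the order was CD3D with 19835 ± 754, CD3E with 3021 ± 126, TRAT1 with 2065 ± 116, CD3G with 1922 ± 70.6, CD247 with 966 ± 20.7 and PTCRA with 4.95 ± 1.49 normalized counts per kilobase. TRAT1 and CD3G were neighbours there that differed by less than the sum of their SDs; the other neighbours differed by more than theirs in both groups. CD3E made up 7.95% ± 0.0388 of the members' summed per-kilobase level in Ctrl and 10.9% ± 0.0466 in No glucose (SD, n = 2), and CD3G 10.1% ± 0.0564 and 6.91% ± 0.00548. CD3D held 71.3% in both groups. These levels depend on the length used. The annotated exons of CD3E and CD3G have 2844 and 3836 bases, and their protein-coding transcripts 1548 and 2690. For CD3G that is also the longest transcript, whereas the longest of CD3E has 2643 bases. With protein-coding transcripts as the length, CD3E and CD3G had nearly equal shares in Ctrl, 11.8% and 11.6%, and 15.9% and 7.87% in No glucose. The order of the group means was then CD3D, CD3E, CD3G, TRAT1, CD247 and PTCRA in both groups. In No glucose, CD3G and TRAT1 (7.80% ± 0.158) differed by less than the SD of TRAT1. In ONG_9 TRAT1 was above CD3G, at 7.92% and 7.87%. The 6 genes together took 0.125% and 0.127% of gene reads in CTRL_7 and CTRL_8 and 0.155% and 0.151% in ONG_9 and ONG_10.

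Transcript length moved with the fold changes across the coding genes, and its part in the members' values was not tested beyond the correction given above. The genes were split into 5 equal bins by the length of their longest annotated transcript, which the correction also used. CD3D and TRAT1 fall in the shortest bin, where the median log2 fold change was -0.42. CD3E, CD3G and CD247 fall in the next bin, with a median of -0.28. The protein-coding transcripts of CD3E and CD247 have 1548 and 1609 bases, below the shortest bin's upper limit of 2231. CD3D, TRAT1, CD247 and CD3E were all above the median of their bin, and CD3G alone was below it. After removal of the length and GC trend CD3E stood at 0.69 and CD3G at -0.33.

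The 3 genes with opposite or flat courses are close neighbours on chromosome 11. The cluster spans 50617 bp, with 22779 bp between the 3′ ends of CD3E and CD3D and 1600 bp between the starts of CD3D and CD3G, which are transcribed away from each other. No annotated gene overlaps CD3E, CD3D or CD3G on either strand. The nearest coding genes beyond CD3E, MPZL2 and MPZL3, were low and higher without glucose, MPZL2 at 16.8 ± 2.95 and 39.4 ± 2.16 and MPZL3 at 199.9 ± 6.75 and 392 ± 48.3 normalized counts (SD, n = 2). Beyond CD3G, UBE4A had a log2 fold change of 0.12 ± 0.06 and the ATP synthase subunit gene ATP5MG one of -0.33 ± 0.06 (SE, adjusted p = 0.14 and 0.0017, limma). ATP5MG was not called with library totals (adjusted p = 0.11), without CTRL_7 (0.093) or without CTRL_8 (0.064), nor MPZL2 without CTRL_8 (0.071) or ONG_10 (0.052) or by DESeq2 (0.076). UBE4A was called higher with library totals (0.33), after the length and GC correction (0.16) and without ONG_10 (0.16).

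The regions before the starts of the most and the least abundant member are shown with their E-boxes, the CANNTG sequence bound by the E proteins TCF3 and TCF12, which are known to act on PTCRA in thymocytes. They come from RefSeq (GRCh38.p14) and end before the first annotated transcript start. Capitals mark each E-box. The pattern CANNTG, though not each match to it, reads the same on both strands.
PTCRA, chr6:42915803-42915988, plus strand: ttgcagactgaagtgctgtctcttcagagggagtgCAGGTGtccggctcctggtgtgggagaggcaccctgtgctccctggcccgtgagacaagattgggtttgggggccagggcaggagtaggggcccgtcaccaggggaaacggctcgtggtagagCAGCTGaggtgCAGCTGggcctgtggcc
CD3D, chr11:118342745-118342955, minus strand: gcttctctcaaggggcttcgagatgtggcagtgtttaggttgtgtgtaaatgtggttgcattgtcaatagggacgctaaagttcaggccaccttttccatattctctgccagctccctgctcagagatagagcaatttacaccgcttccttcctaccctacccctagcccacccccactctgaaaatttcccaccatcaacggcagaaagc
The PTCRA stretch of 186 bases held 3 E-boxes, a number that 5.52% of 35116 regions of that length reach. The CD3D stretch of 211 bases held 0, whereas 56.5% of regions of its length hold at least 1. The stretches of CD247 and TRAT1, not printed, held 1 each, as 49.0% and 47.5% of regions of their lengths hold at least 1. Another pattern, the ETS core GGAA or TTCC, was also searched in these stretches. It had 4 matches in CD3D and 3 in TRAT1, numbers that 24.0% and 29.2% of regions of those lengths reach. PTCRA and CD247 held 1 each, as 86.4% and 83.9% of regions of their lengths hold at least 1. A match of letters is not evidence of binding. TCF12 had 10379 ± 114 normalized counts in Ctrl and 14355 ± 365 in No glucose (SD, n = 2) and its inhibitor ID2 had 203 ± 0.221 and 417 ± 21.8, both called higher under every alternative. TCF3 had a log2 fold change of -0.37 ± 0.12 (SE, adjusted p = 0.037, limma) that was not called without CTRL_7 (0.33) or ONG_9 (0.075), with library totals (0.45), by DESeq2 (0.29), without a filter (0.065) or after the length and GC correction (0.32). ID3, another inhibitor of E proteins, was more abundant than ID2 and went the other way. It had 2626 ± 99.4 normalized counts in Ctrl and 1917 ± 305 in No glucose (SD, n = 2). Its log2 fold change was -0.46 ± 0.09 (SE, adjusted p = 0.0022, limma). With library totals ID3 was at -0.25 and not called (adjusted p = 0.11, limma). Without CTRL_7 it was at -0.42 and also not called. PTCRA was near 0 in all 4 libraries beside these levels.

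Coding genes with a pattern close to that of each of the 5 expressed members were found, which 4 values per gene readily allow. PTCRA had 2 to 19 reads per library, too few for its lack of near matches to be read as a result. Distance was Euclidean, between log2 values of the 4 libraries, each centred on the gene's mean. Only coding genes with a symbol and a mean of at least 50 were compared. The nearest of 10636 such genes to CD3E were ZNF318 and ZMYM2, at 0.017 and 0.018. For CD3G they were SLC26A2 and CEBPZ (0.0070 and 0.0089), and for CD3D PCNX4 and SNX1 (0.0054 and 0.0062). Those of CD247 were FAM174A and BNIP1 (0.017 and 0.018), and those of TRAT1 SAMD9L and CYTB, a mitochondrial gene (0.013 and 0.015). PTCRA, whose own mean was 5.19, lay no nearer than 0.27 to ZNHIT2 and 0.35 to TIGD4. Within a distance of 0.1 there were 232 genes for CD3E, 771 for CD3G, 725 for CD3D, 353 for CD247, 575 for TRAT1 and 0 for PTCRA. How many such neighbours other genes have was not computed.

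Among the constant regions of the receptor chains that the CD3 chains assemble with, 4 of 5 tested genes were higher and 0 lower, beside 14.4% higher and 20.7% lower over all genes tested. TRAC, the alpha constant region, went from 82.1 and 91.0 to 878 and 826 normalized counts in CTRL_7, CTRL_8, ONG_9 and ONG_10, and TRGC2 from 438 ± 16.5 to 945 ± 42.5 (SD, n = 2). TRBC1 rose by 0.83 ± 0.10 on the log2 scale (SE), while TRBC2, the more abundant beta constant region, had 5048 ± 49.5 and 5038 ± 306 normalized counts and was not called. The sign of TRBC2 was positive without CTRL_7 or ONG_9, and it was called higher with library totals (0.21) and after the length and GC correction (0.19). TRGC1 rose by 0.77 ± 0.21, a call lost without CTRL_7, CTRL_8 or ONG_9 (adjusted p = 0.12, 0.093 and 0.089) and by DESeq2 (0.092). TRBC1 and TRBC2, and likewise TRGC1 and TRGC2, are near-identical copies whose reads may be split uncertainly.

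Among listed genes of the receptor, its signalling and the T lineage, calls went in both directions. Beside signalling genes the lists hold constant regions, coreceptors, pre-T stage genes, transcription factors, NOTCH genes and other ITAM chains. In 9 pathway lists 34 of 90 tested genes were higher and 24 lower, with a median log2 fold change of 0.06. For this count and those of the single lists below, the background is 14.4% higher and 20.7% lower over all genes tested, and 18.9% and 47.2% among coding genes with a mean of at least 50, whose median was -0.20. Scaling to library totals made this 48 higher and 15 lower, and without CTRL_7 it was 23 and 12. Of the transmembrane adaptors related to TRAT1 in role, LAX1 rose by 0.53 ± 0.07 (SE) and PAG1 changed by -0.36 ± 0.05, the latter not called without CTRL_7 (adjusted p = 0.055). LAT (0.13 ± 0.15) and SIT1 (0.02 ± 0.06) were not called; LAT turned negative without CTRL_7, and SIT1 was called higher with library totals (0.24), after the length and GC correction (0.34) and without ONG_9 (0.097). Among 11 kinases and phosphatases 5 were higher and 1 lower, led by the CD45 gene PTPRC at 0.64 ± 0.05. Without CTRL_7 they were 2 and 0, without CTRL_8 3 higher, and 3 were lower without ONG_10, by edgeR and by limma-voom. With a pseudocount of 5 there were 2 lower, and after the length and GC correction 8 higher. Of 19 cytosolic adaptors and effectors 11 were higher and 3 lower, and the ubiquitin ligase CBLB had the largest rise, from 611 ± 2.07 to 2175 ± 82.1 normalized counts (SD, n = 2). That list had 0 lower calls without CTRL_7 or without CTRL_8 and 1 with library totals or the length and GC correction. Coreceptors and surface proteins had 1 higher (CD28, 0.89 ± 0.08) and 3 lower calls of 11, and 2 higher without ONG_9 or ONG_10, 4 with library totals and 5 after the length and GC correction.

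Genes of the pre-T stage at which PTCRA is used had 4 lower and 1 higher call of 10, near the 47.2% and 18.9% of coding genes with a mean of at least 50. RAG1 (-0.75 ± 0.05) and CD1D (-0.78 ± 0.05, SE) were among the falls, and the rise of CD1C was lost without CTRL_7 or CTRL_8 (adjusted p = 0.26 and 0.32), whereas 3 were higher with library totals or the length and GC correction. T lineage transcription factors had 9 higher and 6 lower calls of 18, with 1 lower without CTRL_7, 3 without CTRL_8 or by DESeq2 and 1 with library totals. NOTCH receptors and targets had 2 higher and 4 lower calls of 8, and 1 higher call without CTRL_7, CTRL_8 or ONG_10. The ITAM chains of other receptors had 0 higher and 2 lower calls of 4. CD79A and CD79B changed by -0.61 ± 0.08 and -1.23 ± 0.14 (SE), beside -0.45 for CD3G, and FCER1G and TYROBP had at most 12.0 normalized counts.

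**Figure D4:**
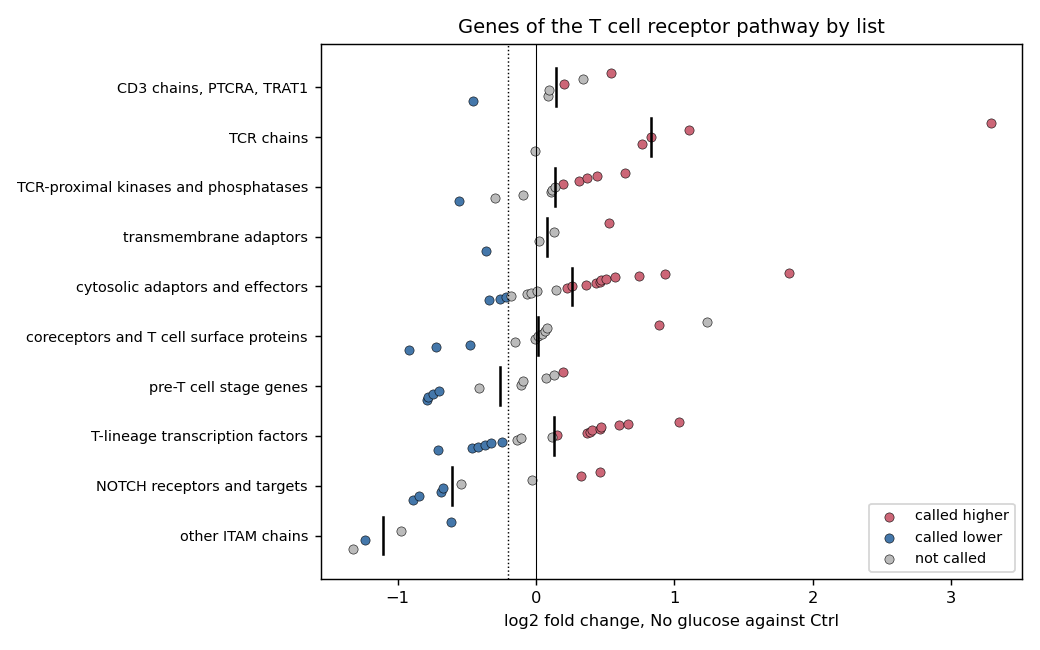
Log2 fold change (horizontal axis) of every tested gene in the members' row and in 9 pathway lists (rows), with 1 circle per gene, red for called higher, blue for called lower and grey for not called. Short vertical bars are the median of each row, and the dotted line is the median of coding genes with a mean of at least 50, -0.20; TRAC stands alone at the right with 3.29.

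In the authors' deposited table CD3E, CD3G and CD247 had log2 fold changes of 0.54, -0.45 and 0.20, with adjusted p-values of 1.3e-15, 6.2e-12 and 0.015. The authors' deposited table gave CD3D and TRAT1 adjusted p-values of 0.24 and 0.35, and no adjusted p for PTCRA.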

How the data were processed

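Total RNA libraries were made with a stranded kit and sequenced as single 75-base reads, per the labels' protocols. Per the submitters' processing notes STAR 2.6.0c, RSEM 1.3.0 and DESeq2 1.18.1 were used with hg38; the annotation and counting strand are not given in the sources used here. The signal values deposited by the authors are gene counts divided by a size factor per library. Whole reads were recovered (100% of values within 0.01 of a whole read). The log2 fold changes, the test statistic (a score) and the p-values deposited by the authors served only for comparison. The series has only the groups Ctrl and No glucose, so the ONG columns were read as the latter.

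The test was limma 3.58.1 with a mean-variance trend in R 4.3.3, applied to log2(normalized count + 1) of every gene averaging 1 normalized count or more. It was two-sided, with Benjamini-Hochberg adjustment over these genes and a threshold of 0.05. Fold changes on this scale understate the change of low genes. The design named edgeR for raw counts. Alternatives were edgeR 4.0.16, limma-voom and DESeq2 1.42.0 on recovered reads, changed pseudocounts, filters or scaling, a length and GC correction and leaving out each library. limma was also run on simulated counts, and no result here rests on that run. The simulation changed far fewer genes than were called here, so it does not measure false calls in these data.

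Annotation, lengths and coordinates came from GENCODE 29. All 6 members matched the deposited symbols; RefSeq promoter regions were found for 4. Members and lists were chosen with earlier results of these data known. Named were all members, listed genes by size of change, all constant-region and transmembrane adaptor genes, flanking genes, and 2 genes of nearest pattern per member. Markers of other cell types were named after their values were seen.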

Additional observations from a re-analysis of the deposited data

How the results depend on the processing

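CD3E and CD3G kept their direction and call under all 14 alternatives, and PTCRA was called under 0 of 13. With library totals 6106 genes were higher, 4 members were higher, CD3D was at 0.30, TRAT1 at 0.30, and 15 pathway genes were lower. After the length and GC correction 5930 genes and 4 members were higher, with CD3D at 0.27 and TRAT1 at 0.19. DESeq2 called 2436 genes higher. The filter at a mean of 10 left PTCRA without a value. Leaving out each library in turn gave 2027 to 4172 genes higher and 3318 to 6387 lower (3948 and 5695 with all), 1 to 4 members higher, 23 to 38 pathway genes higher and 12 to 28 lower. Log2 fold changes then ranged from 0.052 to 0.13 for CD3D, 0.18 to 0.23 for CD247, 0.035 to 0.15 for TRAT1 and -0.17 to 0.86 for PTCRA, whose reversal came without CTRL_8. In these fits the lone library of a group is assumed to vary like the other group. The causes of these differences were not tested.

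Shares of the members' per-kilobase level in Ctrl and No glucose with the longest transcript as length were 67.4% and 68.0% for CD3D, 7.50% and 10.3% for CD3E, 12.6% and 8.71% for CD3G, 3.89% and 4.24% for CD247 and 8.56% and 8.65% for TRAT1. With the protein-coding transcript, chosen after seeing the data, they were 62.2% and 61.4%, 11.8% and 15.9%, 11.6% and 7.87%, 6.51% and 6.96%, and 7.89% and 7.80%. No paired analysis was possible because the columns carry none of the labels' replicate numbers. Over all genes tested the median log2 fold change was 0.04, and 0.23 with library totals. PTCRA rested on 2 to 19 reads per library.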
